A study of Mus musculus with 2 samples.

Results

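Genes that build, cut and protect the extracellular matrix were followed through F4/80-enriched mouse liver cells: the metalloproteinases Mmp9, Mmp12, Mmp13 and Mmp14, the tissue inhibitors Timp1, Timp2 and Timp3, and the matrix proteins Fn1 and Tgfbi. They were taken by symbol, and all 9 were found among the 26078 genes counted. The cells came from a Spta wt/wt mouse and its Spta sph/sph littermate, untreated males of 8 to 10 weeks, and were sequenced as 2 droplet libraries with 1 mouse per genotype. Livers were perfused with collagenase, and non-parenchymal cells were pulled down with beads against F4/80, a macrophage surface protein, so the shares of cell types were set in part by that selection. The labels do not tie the barcode suffixes 1 and 2 to a genotype. The values below therefore compare library 1 with library 2, not the genotypes, and no replicate error exists for any of them.

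Liver matrix is turned over by metalloproteinases, zinc enzymes that are made as inactive precursors and are held in check by the Timp proteins, which bind their active site. Mmp9 is a gelatinase stored in neutrophil granules, Mmp12 is the macrophage elastase, Mmp13 is a collagenase of fibrillar collagen, and Mmp14 is anchored in the cell membrane, where it activates pro-Mmp2 with the help of Timp2. Fibronectin, encoded by Fn1, is a glycoprotein that cells bind through integrins, and Tgfbi encodes a secreted matrix protein induced by TGF-beta.

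The 2 libraries held 8907 and 9726 barcodes, of which 3488 (39.2%) and 6942 (71.4%) were kept, with a minimum of 200 genes and a mitochondrial share of UMIs up to 20%. A UMI is 1 counted transcript molecule. The kept cells held 14117134 UMIs in library 1 and 45802199 in library 2. The same 955 barcode sequences occurred in both libraries, and 815 kept cells of library 1 (23.4%), against 44 of library 2 (0.634%), were shallow copies, meaning that their partner held over 5 times their UMIs. Cells were placed in classes by marker genes. The 10 leading genes of each class checked held some of its markers, as few as 1 in dendritic-like cells of library 2. Because the gates used those markers, this is no independent check. Kupffer-like cells, the resident liver macrophages, numbered 2328 and 4312, with a median of 3365 and 5637.5 UMIs, and all 10 of their markers were detected. Among them, 545 and 30 cells were such copies, and globin transcripts made 0.219% and 5.63% of their UMIs. A score of 100 marker UMIs per 10000 admitted a cell to this class, and 178 cells of library 1 and 791 of library 2 scored between 75 and 125. Monocyte-like cells, which include monocyte-derived cells, numbered 197 and 148, and endothelial-like cells 257 and 117. The stellate-like class had 34 and 80 cells and the dendritic-like class 32 and 60, so library 1 was below 50 cells in both. Neutrophil-like cells numbered 3 and 30. In all, 322 and 929 kept cells met no marker gate. Levels are CPM, the UMIs of a gene per 1000000 UMIs of the class in that library, and every interval is a 95% interval of counting error only.

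The promoters of 3 members are shown because 2 of them, Mmp12 and Mmp13, are neighbours whose transcripts turned up in the same cells, and because Tgfbi differed most between the libraries among the members that reached the minimum level given below. Mmp13 (chr9:7272514-7283331) and Mmp12 (chr9:7344381-7369499) lie on the plus strand of GRCm38 with 61049 bases between them, and Tgfbi lies at chr13:56609523-56639562, also on the plus strand. RefSeq's promoter table for GRCm38.p6 matched 7 of the 9 members, and Mmp9 and Fn1 were not matched. Each stretch ends at the base before the annotated gene, at chr9:7272264-7272513 for Mmp13, chr9:7344147-7344380 for Mmp12 and chr13:56609336-56609522 for Tgfbi. Capitals in Mmp13 mark an AP-1 motif and a TATA box.
Mmp13: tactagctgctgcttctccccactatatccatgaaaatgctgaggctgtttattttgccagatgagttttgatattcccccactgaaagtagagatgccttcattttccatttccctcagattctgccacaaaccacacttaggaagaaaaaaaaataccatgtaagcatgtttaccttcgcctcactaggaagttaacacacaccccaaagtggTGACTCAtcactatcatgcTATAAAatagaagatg
Mmp12: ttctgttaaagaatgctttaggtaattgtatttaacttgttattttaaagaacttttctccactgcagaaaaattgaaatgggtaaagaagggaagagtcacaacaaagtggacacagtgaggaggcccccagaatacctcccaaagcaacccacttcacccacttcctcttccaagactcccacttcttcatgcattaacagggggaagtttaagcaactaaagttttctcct
Tgfbi: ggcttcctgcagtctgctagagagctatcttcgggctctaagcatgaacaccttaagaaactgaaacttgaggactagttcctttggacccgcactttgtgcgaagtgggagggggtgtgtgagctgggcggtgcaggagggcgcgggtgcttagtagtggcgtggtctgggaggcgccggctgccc

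The 250 bases before each RefSeq start were searched on both strands for the AP-1 motif TGANTCA, for the TATA box written TATAAA and for the GC box written GGGCGG. In Mmp13 the AP-1 motif began 35 bases and the TATA box 16 bases before the start. An AP-1 motif also began 44 bases before a second RefSeq start of Mmp12 that lies inside the gene and is not shown, and none was found before the start shown above. These motifs occurred in 6.75% (AP-1), 12.4% (TATA box) and 32.7% (GC box) of 32851 promoter windows. A GC box was found in Tgfbi, 124 bases before its start, and in Timp1, Timp2, Timp3 and Mmp14. The full 250-base windows of the promoters shown held 0 (Mmp12), 1 (Mmp13) and 15 (Tgfbi) CpG dinucleotides, and the second Mmp12 window held 2. Timp1 had 6, Mmp14 10, Timp3 18 and Timp2 21, beside a median of 6 over all windows. A motif match is a description of these letters and not a binding site.

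**Figure D1:**
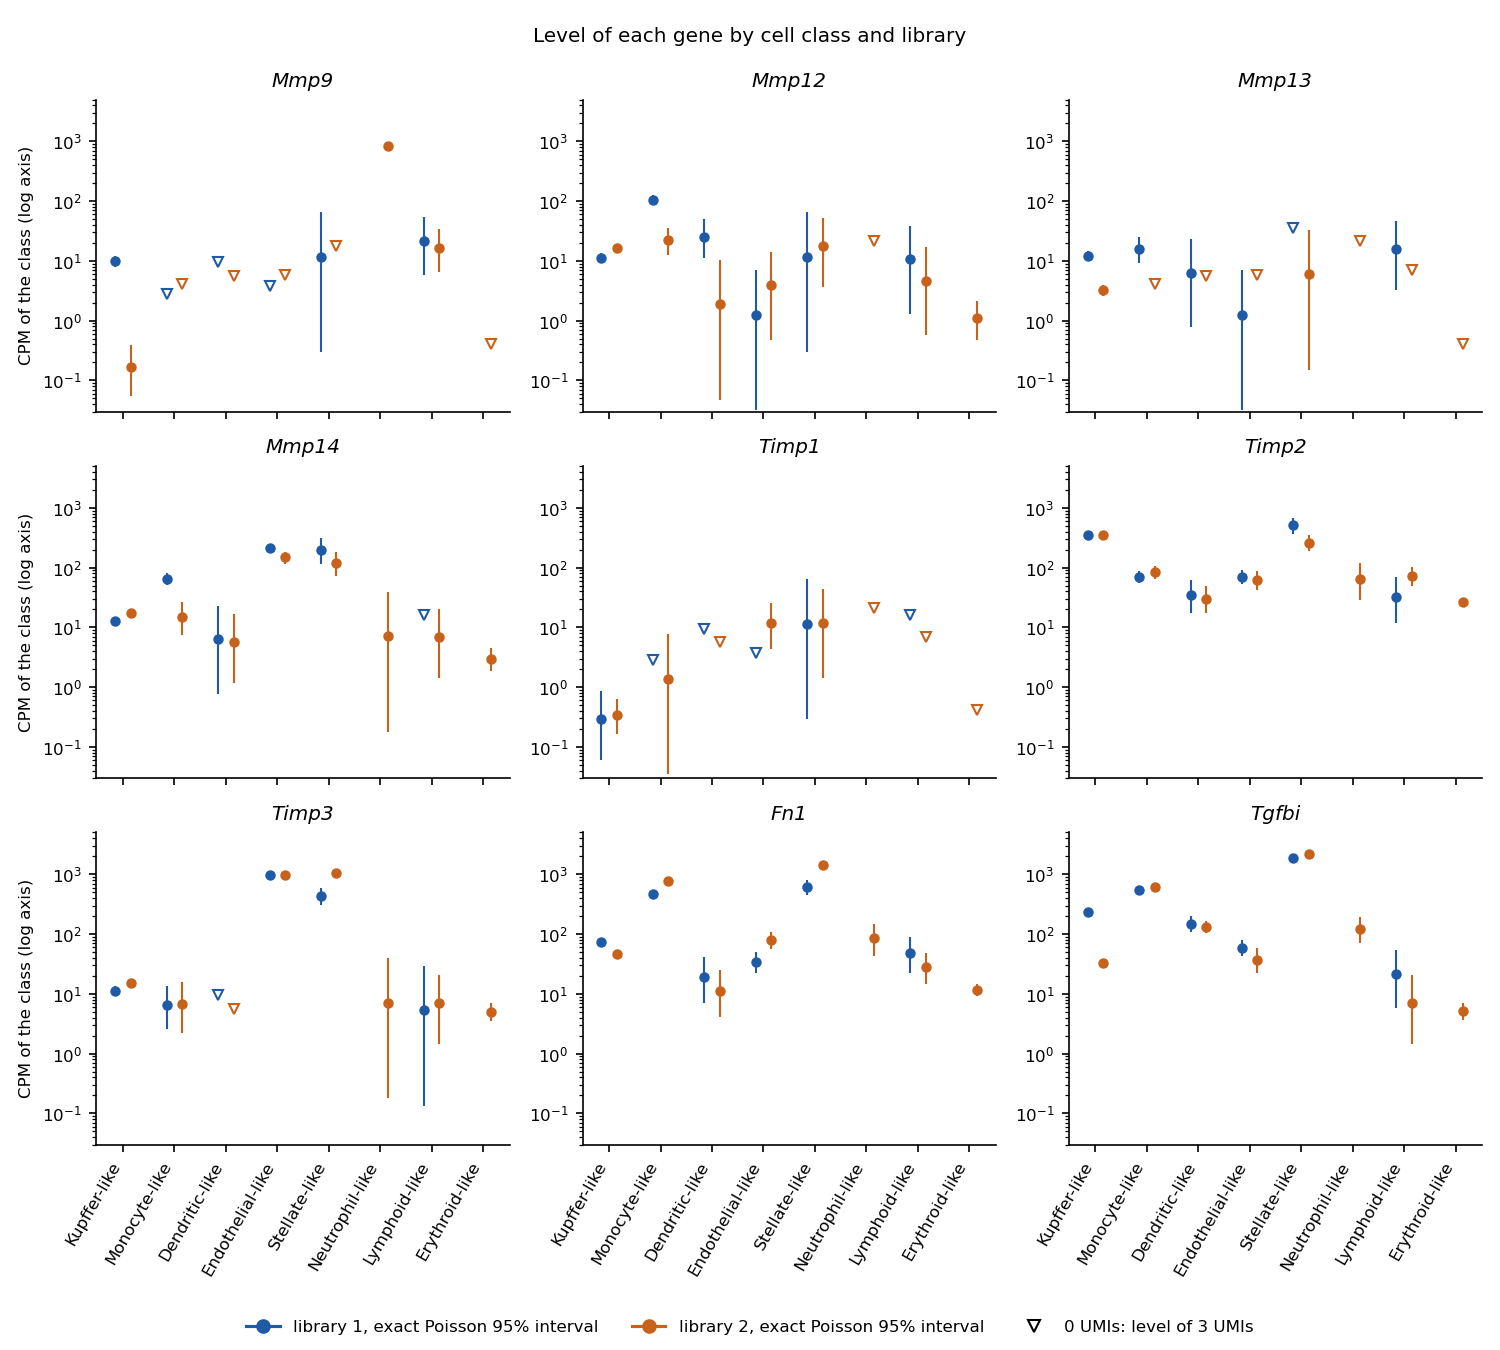
Level of each of the 9 genes (CPM, log axis) in marker-gated classes, with library 1 and library 2 as separate points and bars for the 95% interval of counting error; an open triangle stands at the level that 3 UMIs would give where none was counted, and classes under 30 cells, as well as the erythroid-like cells of library 1, are left out. Timp3 and Mmp14 stand high in endothelial-like and stellate-like cells, Timp2 in Kupffer-like and stellate-like cells, and Mmp9 in neutrophil-like cells.

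In Kupffer-like cells, 7 of the 9 genes reached the minimum of 10 CPM and 10 UMIs in either library. Tgfbi and Mmp13 were at least 2-fold lower in library 2, where 9.25% of all 8236 genes that reached the minimum were. No member was at least 2-fold higher, where 2.39% of all genes were. The other 5 lay within 2-fold, and the median log2 ratio of library 2 over library 1 was 0.02 over the 7 genes and -0.33 over all genes. Mmp9 missed the minimum level by little in library 1 and is described with its counts.

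**Figure D2:**
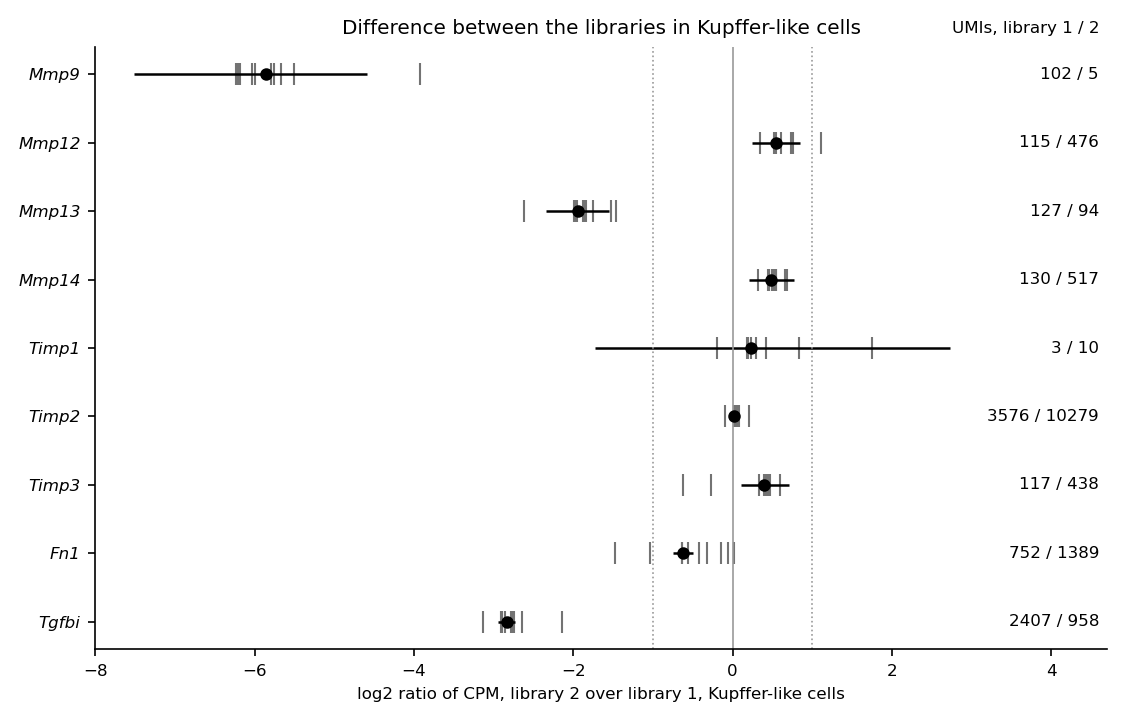
Log2 ratio of CPM in Kupffer-like cells, library 2 over library 1, for each gene, with bars for the 95% interval of counting error, short vertical marks for the values under 10 other ways of processing, and the UMIs of each library at the right. Mmp9, Tgfbi and Mmp13 lie beyond the 2-fold lines on the side of library 1, and Timp2 sits at 0.02.

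Mmp9, the neutrophil gelatinase, was counted in Kupffer-like cells of library 1 and hardly in those of library 2. In library 1 102 UMIs in 72 cells gave 9.86 CPM (8.04 to 12.0), while library 2 had 0.170 CPM (0.0552 to 0.397) from 5 UMIs in 5 cells. This is 58.0-fold lower in library 2 (log2 ratio -5.86, interval -7.51 to -4.59). When each cell was given the same weight the log2 ratio was -3.92. The library 1 UMIs were spread thinly, with at most 4 in a cell and 51 of the 72 cells holding 1.

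At 2000 UMIs, 1.71% and 0.0343% of Kupffer-like cells had a UMI, beside 4.35% (2 of 46 cells) and 5.68% of lymphoid-like cells. The share in Kupffer-like cells was thus not above that of lymphoid-like cells in either library. All lymphoid-like Mmp9 UMIs lay in T and natural killer-like cells, and B-like cells had 0. Monocyte-like and endothelial-like cells of library 1 also had 0, which allows up to 2.79 and 3.78 CPM, below the Kupffer-like level there. In library 2, neutrophil-like cells held 116 of the 136 kept UMIs, in 20 of 30 cells (818 CPM). In library 1, 2 of 3 neutrophil-like cells held 5 UMIs. The Mmp9-bearing Kupffer-like cells of library 1 had no UMI of the neutrophil granule genes Ngp and Camp, which also stood at 0 in the other Kupffer-like cells of that library. Their summed level of 10 neutrophil markers was 67.7 CPM, against 64.4 CPM in Kupffer-like cells without Mmp9. In the cells with Mmp9, all 42 UMIs of that sum were of Csf3r (34) and S100a8 (8). Ngp and Camp, at 0 in both groups, cannot tell the groups apart, and a neutrophil source of Mmp9 was not tested. In library 2, where Mmp9 had 5 UMIs in the class, Ngp had 23 and Camp 25. Cells with Mmp9 were deeper, with a median of 7171 UMIs against 3165.5. T and natural killer-like cells had 4 and 7 Mmp9 UMIs, 40.8 and 64.9 CPM, in 25 and 43 cells.

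Mmp12, the macrophage elastase, was carried by few cells of each macrophage class. In Kupffer-like cells 115 UMIs in library 1 gave 11.1 CPM (9.18 to 13.3) and 476 in library 2 gave 16.2 CPM (14.8 to 17.7), a log2 ratio of 0.54 (0.25 to 0.85). Cells with a UMI made 1.72% and 4.38% of the class, and at an equal depth of 2000 UMIs 1.50% and 2.16%. Lymphoid-like cells, a class with no known elastase expression, had 2.17% (1 cell) and 0% (0 of 88 cells, which allows up to 3.41%) at that depth, with median depths of 2425 and 2448 UMIs before thinning. Library 2 was thus higher by less than 2-fold. It was past 2-fold (1.11) among the 964 of 2328 and 1982 of 4312 Kupffer-like cells with low scores for every other class.

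Monocyte-like cells showed the opposite order of the libraries by level. From 112 UMIs in library 1 and 16 in library 2, Mmp12 reached 104 CPM (85.8 to 125.4) and 22.0 CPM (12.6 to 35.7). The log2 ratio was -2.25, and in library 1 the level was 3.23 log2 units above that of Kupffer-like cells, in library 2 0.44. Few monocyte-like cells carried these UMIs, 25 in library 1, with 75.0% of the UMIs in 10 of them, and 9 in library 2. The intervals of level do not cover this uneven spread among cells. At equal depth 9.52% (5.74% to 14.6%) and 2.84% (0.778% to 7.10%) of monocyte-like cells had a UMI, with overlapping intervals. Dendritic-like cells had 8 UMIs and 1 UMI. Of all kept Mmp12 UMIs of library 1, 39.9% lay in cells that met no gate, 166 UMIs of which 91 came from 1 cell. In library 2, 56 of the 78 such UMIs came from 1 cell. The ungated cells with at least 3 Mmp12 UMIs, 10 and 2 of them, had the class II chain Cd74 at 19860 and 11890 CPM and the integrin Itgax at 819 and 440 CPM. Clec4f, a Kupffer cell lectin, was at 117 and 136 CPM there, against 4036 and 2530 CPM in Kupffer-like cells.

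Mmp13, the collagenase, was lower in library 2 in both macrophage classes. Kupffer-like cells of library 1 held 127 UMIs, 12.3 CPM (10.2 to 14.6), and those of library 2 held 94 UMIs, 3.20 CPM (2.58 to 3.91). The log2 ratio was -1.94 (-2.34 to -1.55), 3.84-fold lower in library 2. Cells with a UMI made 2.79% and 1.30% of the class, and 1.50% and 0.583% at 2000 UMIs, beside 2.17% (1 cell) and 0% of lymphoid-like cells. The 0 of 88 lymphoid-like cells of library 2 allows up to 3.41%, so neither library's share is set apart from that of lymphoid-like cells at equal depth. By level, Kupffer-like cells of library 1 were above endothelial-like cells, which had 1.26 CPM (0.0319 to 7.01) from 1 UMI. Those of library 2 were above erythroid-like cells, where 0 UMIs in 774 cells allows up to 0.409 CPM. Neither library was set apart from lymphoid-like cells by level. Lymphoid-like cells of library 1 had 15.97 CPM (3.293 to 46.66) from 3 UMIs. In library 2, 0 UMIs in 122 lymphoid-like cells allows up to 7.02 CPM. In monocyte-like cells library 1 had 17 UMIs (15.8 CPM) in 10 cells and library 2 had none in 148 cells, which allows up to 4.12 CPM. Against a floor of 3 UMIs this was at least 3.84-fold lower.

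Mmp12 was higher in Kupffer-like cells with a Mmp13 UMI than in the others, in both libraries. In library 1, the 65 cells with Mmp13 had Mmp12 at 136 CPM and the other Kupffer-like cells at 4.97 CPM, a log2 difference of 4.77 (4.22 to 5.34). In library 2 the 56 cells with Mmp13 had it at 81.5 CPM and the others at 14.9 CPM, a log2 difference of 2.46 (1.99 to 2.89). Both genes were counted in 13 and 11 cells. Cells with a UMI of a rare gene are deeper on the whole, 6770 against 3283 UMIs at the median for Mmp13 in library 1, so shares of cells with both are not compared. These are differences between cells of 1 library, with no test.

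The cells with Mmp13 or Mmp12 differed from the rest of the class in other genes too, and not always alike in the 2 libraries. Cx3cr1, the fractalkine receptor, was higher with Mmp13 in both, at 140 against 21.1 CPM in library 1 and 25.5 against 2.74 CPM in library 2. Ccr2, the chemokine receptor of monocytes, stood at 307 CPM with Mmp13 and 33.7 CPM without it in library 1, and at 3.40 CPM (2 UMIs) and 4.34 CPM in library 2. With and without Mmp12, Ccr2 was at 394 and 35.8 CPM in library 1 and at 11.9 and 3.76 CPM in library 2. The surface antigen gene Ly6a was higher with Mmp13 in both libraries, at 193.5 against 110 CPM and at 137.5 against 13.5 CPM. The summed proliferation markers had opposite orders, at 98.8 CPM with Mmp13 against 151 CPM without it in library 1 and at 351 against 98.0 CPM in library 2. Il1rn, the interleukin-1 receptor antagonist, was at 65.0 CPM in the 189 cells with Mmp12 of library 2 against 13.6 CPM, and at 54.9 against 44.5 CPM in library 1, within counting error.

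Some monocyte markers moved with these genes between the libraries, and others did not. All 12 monocyte markers were counted in Kupffer-like cells of both libraries, and their sum was 411 CPM in library 1 and 233 CPM in library 2. Treml4, a receptor also found on macrophages, made up much of the sum and was alike, at 166.6 and 166.5 CPM. Ccr2 was at 46.5 and 4.32 CPM, Cx3cr1 at 26.7 and 3.20 CPM and Plac8 at 142.8 and 39.3 CPM, lower in library 2 as Tgfbi and Mmp13 were. Ms4a4c was lower too, at 11.3 and 2.69 CPM. Ly6c2 had 1 and 23 UMIs (0.097 and 0.78 CPM) and Chil3 1 and 13 (0.097 and 0.44 CPM), both higher in library 2. S100a4, F10, Ace, Spn and Cd209a lay within 2-fold. The part of monocyte RNA or monocyte-derived cells in the member ratios was not tested.

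**Figure D3:**
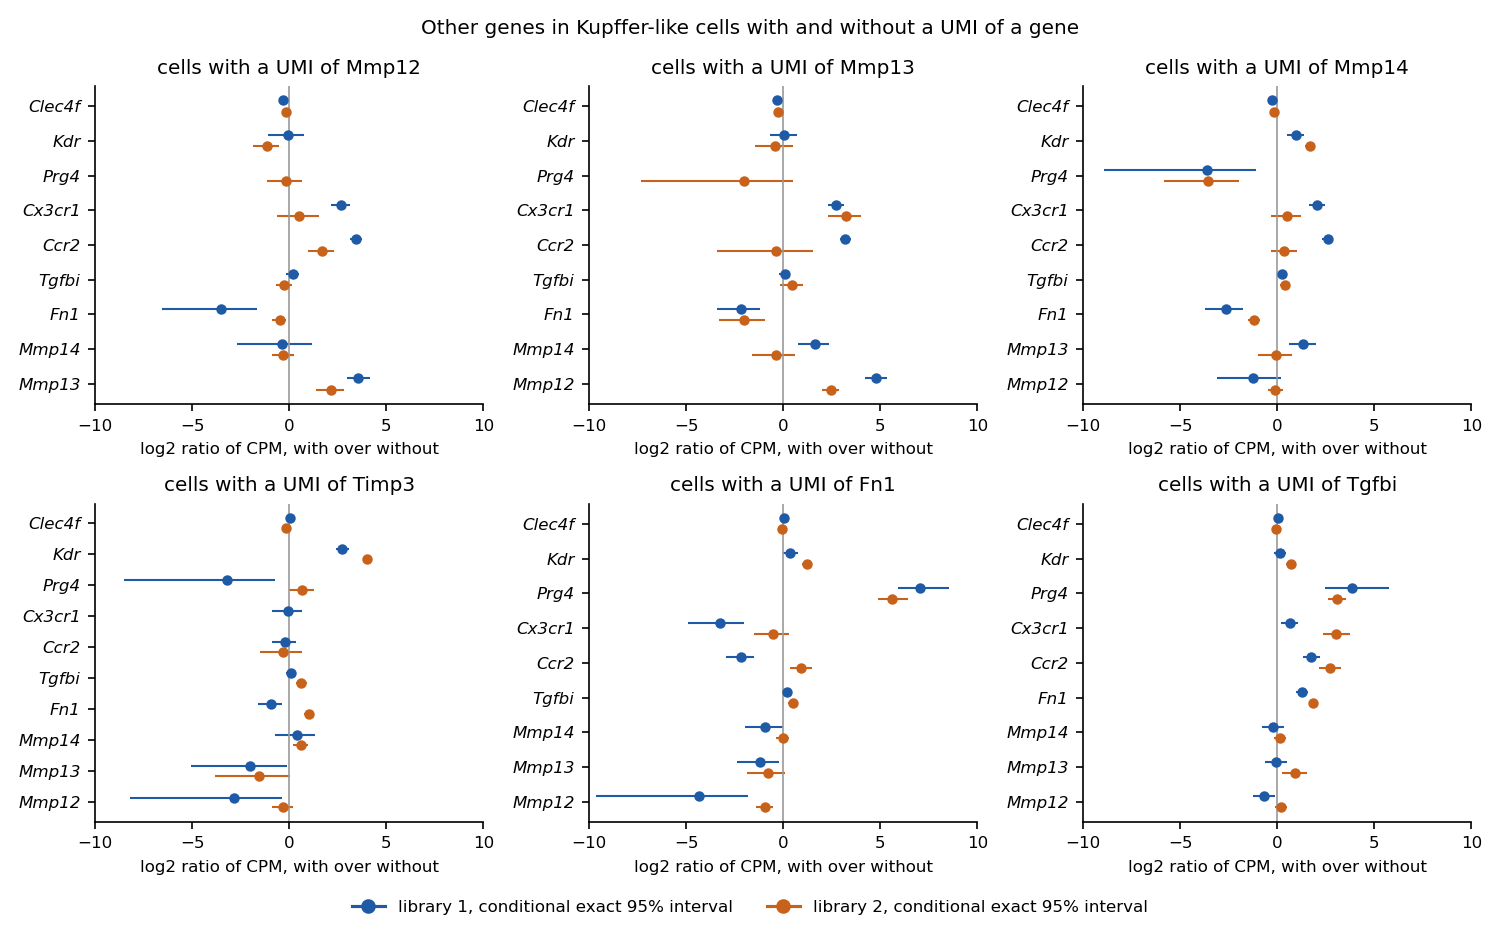
Log2 ratio of CPM of other genes (horizontal axis) in Kupffer-like cells with a UMI of a member over those without it, with 1 panel per member, 1 point per library and bars for the 95% interval of counting error; no point is drawn where a gene has 0 UMIs in cells of either kind. Mmp12 lies to the right of 0 in cells with Mmp13 in both libraries, Ccr2 does so in library 1, and Prg4 does so in cells with Fn1 or Tgfbi.

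Mmp14, the membrane-bound metalloproteinase, had its highest levels in endothelial-like and stellate-like cells. By number of UMIs the Kupffer-like class, which has far more cells, held 27.9% and 64.9% of the kept Mmp14 UMIs, and the endothelial-like class 36.3% and 9.41%. In endothelial-like cells its 2 levels were 213 CPM (182 to 247) and 148 CPM (116 to 185), in 45.1% and 46.2% of cells. Kupffer-like cells had 12.6 CPM (10.5 to 14.9) and 17.6 CPM (16.1 to 19.2), so the endothelial level was 16.9-fold and 8.39-fold higher. Between the libraries the Kupffer-like log2 ratio was 0.49, within 2-fold. At 2000 UMIs, 2.78% and 3.57% of Kupffer-like cells had a UMI, beside 0% (0 of 46 cells, which allows up to 6.52%) and 1.14% of lymphoid-like cells, so the share in library 1 is not set apart from background.

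Kupffer-like cells with Mmp14 numbered 112 and 427. Ccr2 was at 203 CPM with Mmp14 against 33.3 CPM without it in library 1, and at 5.34 against 4.14 CPM, within counting error, in library 2. The summed endothelial marker list was higher with Mmp14 in both, at 1179 against 968 CPM and at 805 against 569 CPM. Over the whole Kupffer-like class, Cdh5 alone made 540 of the 984 CPM of this list in library 1. In library 2 it made 257.5 of 605 CPM, and the source of the list's RNA was not tested. Timp3 was at 18.7 CPM with Mmp14 against 10.7 CPM without it, within counting error, in library 1. In library 2 Timp3 was at 31.8 against 11.9 CPM. The monocyte-like level was 65.1 CPM (50.8 to 82.3) for library 1 and 15.1 CPM (7.54 to 27.0) for library 2, a log2 ratio of -2.11. In library 1 the 42 monocyte-like cells with Mmp14 had Fn1 at 72.4 CPM, against 616 CPM without it, and Il1rn at 438 against 46.7 CPM.

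A protease UMI of any of the 4 genes was present in 258 Kupffer-like cells of library 1 (11.1%) and 636 of library 2 (14.7%). Of these, 27 and 40 had 2 or more of the 4. Cells with no UMI of any of the 9 genes made 29.1% and 25.7% of the class. These counts were not taken at equal depth, and library 2 was the deeper at the median.

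**Figure D4:**
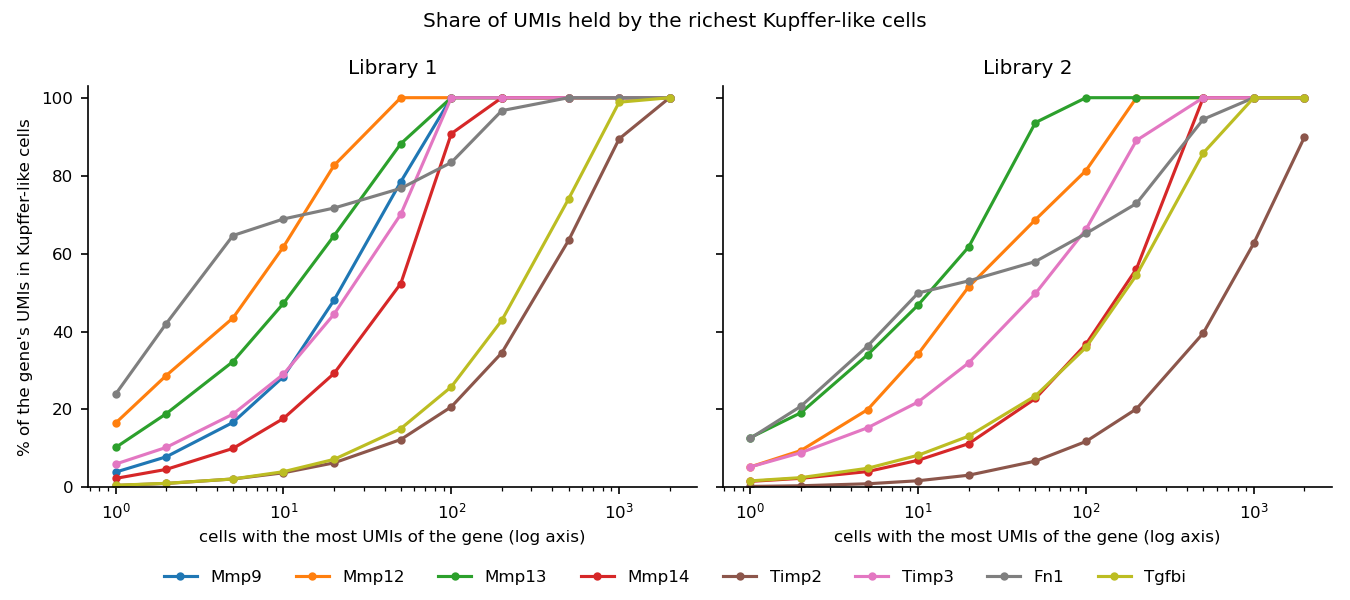
Cumulative percentage of a gene's UMIs in Kupffer-like cells (vertical axis) against the number of cells, ordered from the cell with most UMIs (horizontal axis, log scale), for each library; Timp1, and Mmp9 in library 2, have too few UMIs to draw. Fn1, Mmp12 and Mmp13 climb steeply, with 68.9%, 61.7% and 47.2% of their library 1 UMIs in 10 cells, while Timp2 has 3.75% there.

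Timp2, which inhibits soluble metalloproteinases and also docks pro-Mmp2 on Mmp14, was found throughout Kupffer-like cells and did not differ between the libraries beyond counting error. From 3576 UMIs in library 1 and 10279 in library 2, its levels were 345.6 CPM (334 to 357) and 349.6 CPM (343 to 357). The log2 ratio was 0.02 (-0.04 to 0.07), while the median gene lay at -0.33. Cells with a UMI made 59.2% and 67.1%, and at 2000 UMIs 49.4% and 49.8%, beside 6.52% and 11.4% of lymphoid-like cells. The transcript was spread evenly, with 3.75% and 1.70% of its UMIs in the 10 richest cells.

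In monocyte-like, endothelial-like and dendritic-like cells Timp2 was lower than in Kupffer-like cells. Monocyte-like cells had 69.8 and 83.7 CPM, 4.95-fold and 4.18-fold below Kupffer-like cells. Endothelial-like cells had 69.2 and 61.0 CPM, 4.99-fold and 5.73-fold below. Dendritic-like cells had 35.0 and 30.2 CPM. Erythroid-like cells of library 2 had 26.7 CPM, with a UMI in 19.4% of cells, and lymphoid-like cells 31.9 and 72.5 CPM, so the lower levels lie near that of cells not known for the gene. Stellate-like cells had 510 CPM (371 to 685) and 257 CPM (186 to 346), which lie on either side of the Kupffer-like level.

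Timp3, the inhibitor that binds to the matrix itself, had its highest levels among classes of over 30 cells in endothelial-like and stellate-like cells. The endothelial-like levels were 987 CPM (919 to 1058) and 961 CPM (877 to 1050), with a UMI in 79.4% and 88.9% of cells. These values did not differ beyond counting error (log2 ratio -0.04). Stellate-like cells had 429 CPM (302 to 592) and 1068 CPM (917 to 1236). Kupffer-like cells stood at 11.3 and 14.9 CPM (log2 ratio 0.40, and -0.62 among cells with low scores for every other class), which is 87.3-fold and 64.5-fold below endothelial-like cells. At 2000 UMIs, 1.85% and 2.57% of Kupffer-like cells had a UMI, beside 2.17% (1 of 46) and 2.27% (2 of 88) of lymphoid-like cells. The share was thus not set apart from that of these few cells. In library 2 the Kupffer-like share (2.03% to 3.21%) was above the erythroid-like share of 0.909% (0.334% to 1.97%). Kupffer-like cells with Timp3 had the endothelial list at 1725 against 937 CPM in library 1 and 1424 against 526 CPM in library 2. Cdh5 was the largest part of this sum in the class, and the source of its RNA was not tested. Timp3 lies inside Syn3 on the other strand and shares exon bases with it, and Syn3 had 0 and 8 UMIs in Kupffer-like cells.

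Timp1, the inhibitor that inflammation induces in many cells, was close to the limit of detection. Kupffer-like cells had 3 and 10 UMIs in 2328 and 4312 cells, 0.290 and 0.340 CPM. The log2 ratio of 0.23 had an interval from -1.73 to 2.73, so a difference was not detectable at this depth. Endothelial-like cells had 0 UMIs in library 1, which allows up to 3.78 CPM, and 6 UMIs in library 2 (11.8 CPM). Stellate-like cells had 1 and 2 UMIs.

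Fn1 was highest in stellate-like and monocyte-like cells, and within the Kupffer-like class much of it came from few cells. Stellate-like cells had 603 CPM (451 to 791) and 1426 CPM (1251 to 1619), and monocyte-like cells 462 CPM (423 to 505) and 757 CPM (696 to 823). Monocyte-like cells were higher in library 2 by a log2 ratio of 0.71 (0.53 to 0.89). Kupffer-like cells had 72.7 CPM (67.6 to 78.1) and 47.3 CPM (44.8 to 49.8), a log2 ratio of -0.62 (-0.75 to -0.49). At 2000 UMIs, 5.20% and 4.83% of Kupffer-like cells had a UMI, beside 8.70% (4 of 46) and 6.82% (6 of 88) of lymphoid-like cells. The share of cells was thus not set apart from that of lymphoid-like cells. Erythroid-like cells of library 2 had 2.88% (1.74% to 4.46%). In 10 cells lay 68.9% and 49.9% of the UMIs of the class, with 180 and 175 in the richest cell.

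Those rich cells carried genes of another kind. Over all kept cells, 11 in library 1 and 25 in library 2 had at least 20 Fn1 UMIs, and they held 50.7% and 41.7% of all kept Fn1 UMIs. Of these, the cells gated as Kupffer-like all had a UMI of Prg4, which encodes the lubricant proteoglycan 4, or Alox15, a lipoxygenase of peritoneal macrophages (5 of 5 and 9 of 9). So did the ungated ones (2 of 2 and 7 of 7). The monocyte-like ones had neither (0 of 4 and 0 of 8). Among all other kept cells, 14 of 3477 and 47 of 6917 had either gene. In the ungated cells Prg4 stood at 3178 and 5720 CPM and the protease inhibitor Slpi at 4703 and 6275 CPM. Leaving the 14 and 40 Kupffer-like cells with Prg4 or Alox15 out brought the log2 ratio of Fn1 from -0.62 to -0.05. It was past 2-fold, at -1.47, among cells with low scores for every other class, and -1.04 with a mitochondrial share up to 10%. The Prg4 and Alox15 test was chosen after these values had been seen.

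In library 1 the monocyte-like cells with Fn1 had less Mmp12 and Mmp13 than those without it. The 71 cells with Fn1 held 0 of the 17 Mmp13 UMIs, and their Mmp12 level was 62.0 CPM against 131 CPM in cells without Fn1. Mmp14 did not differ beyond counting error, at 57.3 against 70.2 CPM. In library 2 Mmp12 was at 16.2 against 27.8 CPM, from 6 and 10 UMIs, with a log2 interval of -2.52 to 0.83. Cd74 was lower with Fn1 in both libraries, at 6929 against 14920 CPM in library 1 and 4575 against 13150 CPM in library 2. The proliferation list and Il1rn had opposite orders in the 2 libraries. The list was at 26.3 against 223 CPM in library 1 and 609 against 61.2 CPM in library 2, and Il1rn was at 308 against 61.0 CPM and at 10.8 against 22.3 CPM. The 25 monocyte-like cells of library 1 with Mmp12 had Itgax at 421 against 140 CPM and Cd74 at 20700 against 10060 CPM. Endothelial-like cells had 27 Fn1 UMIs in library 1 (34.0 CPM) and 40 in library 2 (78.7 CPM), a log2 ratio of 1.21 (0.47 to 1.97). Lymphoid-like cells had 47.9 and 28.1 CPM, so the endothelial level of library 1 was not above background. The summed Kupffer markers in endothelial-like cells were 1342 CPM in library 1 and 3330 CPM in library 2, and their part in that ratio was not tested. In hepatocyte-like cells of library 2, 60 UMIs in 8 of 63 cells gave 287 CPM.

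Tgfbi was the member that separated the Kupffer-like cells of the 2 libraries most among those with over 10 CPM. The 2407 UMIs of library 1 gave 232.6 CPM (223 to 242), and the 958 of library 2 gave 32.6 CPM (30.6 to 34.7). The log2 ratio was -2.84 (-2.95 to -2.73), 7.14-fold lower in library 2. Cells with a UMI made 44.2% and 14.8% of the class, and at 2000 UMIs 35.6% and 5.45%. Lymphoid-like cells had 4.35% (2 of 46 cells) and 1.14% (1 of 88 cells, interval 0.0288% to 6.17%). The Kupffer-like share of library 1 was above this background, and that of library 2 was not set apart from these few cells. In library 2 it was above the erythroid-like share of 0.606% (0.165% to 1.54%). The Kupffer-like level there was also above the lymphoid-like level of 7.02 CPM (1.45 to 20.5). UMIs were spread over many cells, with 4.03% and 8.25% in the 10 richest.

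In the 4 other classes compared the 2 libraries lay within 2-fold. Monocyte-like levels were 542 CPM (499 to 588) and 609 CPM (554 to 669), a log2 ratio of 0.17 (-0.01 to 0.35), in 76.6% and 80.4% of cells. Stellate-like cells had 1868 and 2196 CPM, dendritic-like cells 149.7 and 132.3 CPM, and endothelial-like cells 59.2 and 37.4 CPM. The monocyte-like level was 2.33-fold above that of Kupffer-like cells in library 1 and 18.7-fold above in library 2. The Kupffer-like cells with low scores for every other class, monocyte markers included, had a log2 ratio of -3.13. They were 964 of 2328 and 1982 of 4312 cells. Leaving out the shallow copies gave -2.89.

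Kupffer-like cells with Tgfbi were deeper, with a median of 6482.5 against 1005 UMIs in library 1 and 9955 against 4662.5 in library 2. They had more Ccr2 than those without, at 58.3 against 17.4 CPM in library 1 and 12.7 against 1.93 CPM in library 2. Cx3cr1 in library 2 was at 10.1 against 1.23 CPM. Fn1 was at 87.6 against 35.9 CPM and at 108 against 29.9 CPM. Prg4 was at 19.4 against 1.34 CPM in library 1 and at 21.2 against 2.54 CPM in library 2.

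Counted by class, 3 of the 6 genes that reached the minimum in monocyte-like cells were at least 2-fold lower in library 2 (Mmp12, Mmp13 and Mmp14), where 8.71% of all 8252 genes were. No member was higher there, against 3.27% of all genes. In endothelial-like cells Fn1 was the 1 of 5 that was at least 2-fold higher, where 5.38% of all genes were. None of the 5 was lower, against 15.0% of all genes. Set against Kupffer-like cells of the same library, monocyte-like cells had Mmp12, Mmp14, Fn1 and Tgfbi at least 2-fold higher in library 1, where 11.5% of all genes were. In library 2 only Fn1 and Tgfbi were, where 15.3% of all genes were. Endothelial-like cells had 2 members at least 2-fold higher in library 1 (Mmp14 and Timp3; 24.8% of all genes). In library 2 there were 3 (26.8% of all genes), but the third rests on 6 UMIs of Timp1.

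The wider matrix machinery was followed with 96 further genes, of which 35 reached the minimum in Kupffer-like cells. Of these, 1 was at least 2-fold higher in library 2 and 6 were lower, beside the 2.39% and 9.25% of all genes, and the median log2 ratio was -0.43 against -0.33 over all genes. Of the 5 genes of TGF-beta signalling that reached the minimum, 2 were among the lower ones. This signalling induces Tgfbi, and its part in the Tgfbi ratio was not tested. Smad7, an inhibitor that the pathway itself induces, was at 93.6 and 26.1 CPM (log2 ratio -1.84, -1.98 to -1.70). Skil, a repressor of Smad-driven genes, was at 226.5 and 69.8 CPM (-1.70, -1.79 to -1.61). The ligand Tgfb1 was at 207.6 and 243.5 CPM, and the receptors Tgfbr1 and Tgfbr2 were at 85.4 and 65.0 CPM and at 94.7 and 95.3 CPM, all within 2-fold.

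Among matrix receptors, Itga4, a chain of the fibronectin receptor of leukocytes, was at 120 CPM in library 1 and 52.7 CPM in library 2 (-1.19, -1.30 to -1.08). Of the chains it pairs with, Itgb1 was at 394 and 275 CPM, within 2-fold, and Itgb7 at 28.7 and 2.35 CPM. Adam15, a membrane protease (18.6 and 4.46 CPM), and Thbs1, the matrix protein thrombospondin (12.3 and 3.81 CPM), were the other lower genes. The hyaluronan receptor Cd44 was at 1016 and 811 CPM and the clearance receptor Lrp1 at 673 and 518 CPM, within 2-fold. The metalloproteinase Mmp19 was the gene that was higher in library 2, at 13.3 and 38.7 CPM, and Mmp27 followed at 21.8 and 40.3 CPM. The cathepsin Ctsb was at 6511 and 8629 CPM. Itgb1, Itgb7, Adam15, Thbs1, Mmp19, Mmp27, Ctsb, Cd44, Lrp1, Tgfb1, Tgfbr1 and Tgfbr2 were picked with their values known.

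**Figure D5:**
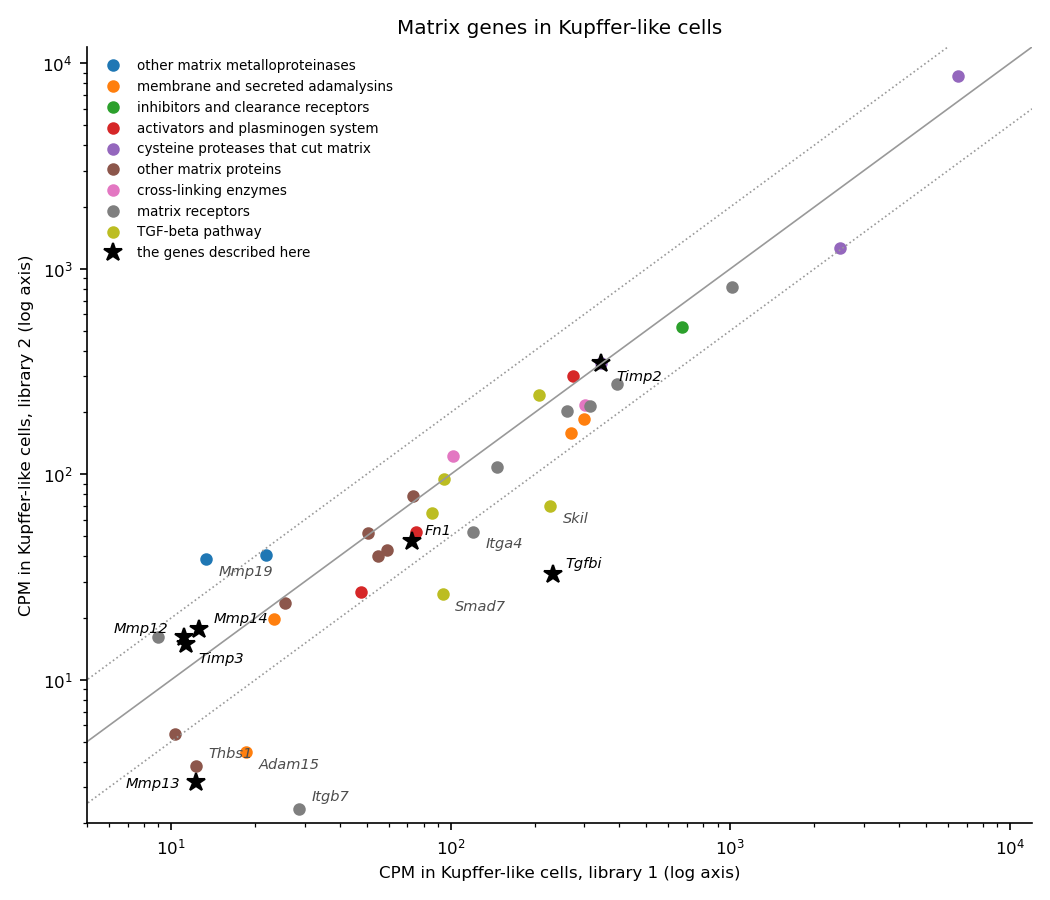
Level in Kupffer-like cells of library 2 against library 1 (CPM, both axes log) for the members (stars) and the genes of the 96-gene matrix list that reached the minimum (dots, coloured by list), with the line of equal level and dotted lines at 2-fold. Tgfbi, Smad7, Skil, Itga4, Itgb7, Adam15, Thbs1 and Mmp13 lie below the lower dotted line, and Mmp19 lies above the upper one.

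In monocyte-like cells 40 of the 96 genes reached the minimum, 6 of them higher and 3 lower in library 2, beside the 3.27% and 8.71% of all genes. Tgfbr1 was lower, at 252 and 115 CPM, and Itgb7 was higher, at 81.9 and 182.5 CPM, opposite to its order in Kupffer-like cells. In endothelial-like cells 47 reached it, 9 higher and 3 lower, beside the 5.38% and 15.0% of all genes. The higher ones included Itgb3 (23.9 and 218.5 CPM), a chain of the vitronectin receptor. The secreted proteases Adamts9 (21.4 and 98.4 CPM) and Adamts1 (68.0 and 163 CPM) were higher as well. Ctsb (1212 and 3326 CPM), Ctsl (1101 and 2220 CPM) and Cd44 (91.9 and 191 CPM) were too, beside the higher Kupffer markers given above, whose part was not tested.

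The genes most like each member across 12 units (a class in 1 library) were sought among 6547 genes by the Pearson correlation of log2(CPM + 10). The units share 2 libraries, and 1 of them, the erythroid-like cells of library 1, is made of shallow copies, so the values are descriptions. Timp3 was closest to Col4a1, Hspg2 and Igfbp7 (r = 0.99 each), which encode a basement membrane collagen, perlecan and an insulin-like growth factor binding protein. Mmp14 was closest to Emilin1, Ssh1 and Atrnl1 (r = 0.95, 0.95 and 0.94), and Timp2 to Pmp22, Tmem141 and Dhrs1 (r = 0.96, 0.95 and 0.94). Mmp12 was closest to Ccl17, Tgfbr1 and Ptpro (r = 0.90, 0.90 and 0.89), Fn1 to Tmem38b (r = 0.93) and Tgfbi to Cysltr1 (r = 0.89). Mmp9, Mmp13 and Timp1 stayed under 50 CPM in all 12 units, and their nearest genes are not given.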

How the data were processed

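The authors deposited 1 table of UMI counts per gene and cell barcode, made with Cell Ranger 3.0.1 on build GRCm38.p5, with R 3.6.1 also listed, per the submitters' processing notes. Suffixes 1 and 2 of the barcodes mark 2 libraries and were not tied to a genotype by the labels, so there was 1 sample per library and no test. The cell filter was a minimum of 200 genes and a mitochondrial share of up to 20%. A class needed 3 detected markers and a summed marker score past a cut, chosen after the counts were seen, and a cell past several cuts was set apart unless 1 score was 3 times the next. No doublet caller was run. Counts were summed per class and library and divided by the class total (CPM). Ratios have conditional exact 95% intervals, levels exact Poisson and shares exact Clopper-Pearson intervals, which cover counting error only. A call was a 2-fold difference with at least 10 CPM in either of the 2 groups compared and at least 10 UMIs in either, not always the same one. Zero counts were replaced by 3 UMIs as a floor for ratios. Thinned shares used cells with at least 2000 UMIs drawn down to that number. Listed genes were named where they had 50 CPM and 30 UMIs in either library and passed 2-fold, up to 6 each way, and others where the text says so. Likeness was taken as the 3 genes of highest correlation. The members, lists and tests were chosen with earlier results of these data known. The ratio script was tested on simulated data. Alternatives covered filters, gates, scaling, minimum levels, shared barcodes and cell weights. Software was pandas 2.3.3, scipy 1.17.1, numpy 2.4.6 and matplotlib 3.10.9 under Python 3.11.15.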

Additional observations from a re-analysis of the deposited data

Results flagged for a closer look

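Some transcripts of the 9 genes lay in cells that met no marker gate and so entered no class comparison, at a level above that of Kupffer-like cells of the same library. Mmp12 in ungated cells of library 1 stood at 332.6 CPM (166 UMIs), against 11.1 CPM in Kupffer-like cells. Fn1 stood at 516.9 CPM in ungated cells of library 1 (258 UMIs) and 150.7 CPM in those of library 2 (682 UMIs), against 72.7 and 47.3 CPM. Mmp14 stood at 42.1 CPM in ungated cells of library 1 (21 UMIs), against 12.6 CPM. Mmp9 stood at 1.55 CPM in ungated cells of library 2 (7 UMIs), against 0.170 CPM. No sample is a control for these cells, and Kupffer-like cells served as the level for comparison.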

How the results depend on the processing

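Across 10 alternatives for the Kupffer-like ratios, the log2 ratio of Tgfbi stayed between -3.13 and -2.14, that of Mmp13 between -2.62 and -1.47 and that of Mmp9 between -6.23 and -3.92. Timp2 lay between -0.10 and 0.21 and Mmp14 between 0.32 and 0.68. Mmp12 ranged from 0.34 to 1.11. Fn1 ranged from -1.47 among cells with low scores for other gates to 0.01 with each cell weighted alike, and it was -1.04 at most 10% mitochondrial UMIs. Timp3 ranged from -0.62 (low scores) to 0.59 and was -0.27 at most 10% mitochondrial UMIs. In Kupffer-like cells 1 member, not 2, was lower with a stricter gate, as Mmp13 dropped to 9.35 CPM, and 1 member, Mmp12, not 0, was higher among low-score cells. In endothelial-like cells 1 member, Mmp14 (-1.14), was lower at most 10% mitochondrial UMIs, and 0 were higher at most 40%, where Fn1 was at 0.76. Of the matrix list, 2 genes were higher at most 10% mitochondrial UMIs, 3 relative to the median gene, 0 with a minimum of 50 CPM, 11 with no minimum and 2 with cells weighted alike, where 1 was above. With a minimum of 50 CPM 3 genes were lower and with none 12, where 6 were above. Its median was -0.30 at most 40% mitochondrial UMIs, -0.32 without globin and mitochondrial genes, -0.23 relative to the median gene, -0.11 with no minimum and -0.22 with cells weighted alike, where it was -0.43 above. The median gene used for relative ratios was taken over genes that reach 50 CPM in each library and lay at -0.19 on the log2 scale. Fewer or more genes reach the minimum in some of these settings. The cause of the other shifts was not tested. The low-score, Prg4 or Alox15 and equal-weight alternatives were chosen after seeing the data. No paired analysis was possible because each genotype has 1 mouse and the labels give no replicate numbers. Depth limits Timp1 throughout and Mmp13 outside Kupffer-like cells.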

Other observations

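Timp1 lies inside Syn1, on the other strand and with no shared exon bases. Syn1, which encodes a synapsin of nerve terminals, had 179 UMIs in Kupffer-like cells of library 1 (17.3 CPM) and 685 in those of library 2 (23.3 CPM), in 6.79% and 13.4% of cells. Endothelial-like cells had 1 and 2 Syn1 UMIs, and monocyte-like cells 0 and 1. Megakaryocyte-like cells, 2 in each library, had 12 and 209 UMIs of Timp3, 1956 and 1405 CPM.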
